A study of Mus musculus with 18 samples.

Results

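The fatty acid desaturases and elongases described here are 9 genes: the stearoyl-CoA desaturases Scd1 and Scd2, the fatty acid desaturases Fads1, Fads2 and Fads3, and the elongases Elovl1, Elovl4, Elovl5 and Elovl6. They were chosen by gene symbol, with earlier results of these data known. They make up 9 of the 55487 genes of the count table and 9 of the 15381 genes that passed the filter on low counts. RNA-seq was done on a wild-type line of MEFs (mouse embryonic fibroblasts) in 6 groups of 3 libraries. MEFs were kept in Scm, complete medium with the serum S-FBS, in which cells were sensitive to ferroptosis, or in Rcm, complete medium with the serum R-FBS, in which they were resistant. In S-Rcm the cells went from Scm into Rcm and in R-Scm from Rcm into Scm, in both cases with RNA taken 12 h or 24 h after the exchange. No group was moved into fresh medium with its own serum, so that a change of serum and a change of medium cannot be told apart, and because the RNA is from bulk cultures, fewer cells and less RNA per cell cannot be told apart either. The labels do not say that replicates were separate cultures, so that p values measure only the spread between these libraries.

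Desaturases and elongases set the number of double bonds and the length of the acyl chains that cells build into phospholipids. SCD enzymes turn saturated acyl-CoAs into MUFAs (monounsaturated fatty acids), whereas FADS1 and FADS2 add double bonds to PUFAs (polyunsaturated fatty acids) taken up from the medium, and ELOVL enzymes extend saturated, monounsaturated or polyunsaturated chains. PUFAs in membrane phospholipids are the substrate of the lipid peroxidation that drives ferroptosis, and MUFAs are not readily peroxidized.

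Total counts per library ran from 14534906 to 20313715, and TMM factors from 0.963 to 1.03. Of 10 fibroblast markers, 10 were found above 1 CPM (counts scaled to a common total after normalization) on average, and their sum ran from 9490 to 13600 CPM, with 10100 to 10500 CPM in Scm and 12100 to 12600 CPM in Rcm. The sums were at most 2.46 CPM for 6 adipocyte markers, with Adipoq, Cidec, Lep and Retn at 0, at most 1.47 CPM for 5 epithelial markers, at most 3.25 CPM for 4 endothelial markers and at most 5.33 CPM for 5 macrophage markers, with Adgre1 at 0. R-Scm 24 h replicate 1 stood apart from the other libraries of its group for Scd1, Scd2, Fads1, Fads2 and Elovl6, and the counts and medians that involve its group are given with and without it.

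Scd1 and Scd2 lie on chromosome 19 of GRCm38, Scd2 at chr19:44293674-44306864 on the plus strand and Scd1 at chr19:44394455-44407879 on the minus strand. Their coding sequences, of 1065 bases in Scd1 and 1074 bases in Scd2 without the stop codon, were identical at 90.3% of 1065 aligned bases. The stretch of 240 coding bases around their longest identical run is shown because counts of one gene can be told from counts of the other only where the sequences differ. It was read from the GENCODE M21 transcripts, with exons joined, and capitals mark the 2 bases at which the genes differ. It runs from coding base 477 to 716 of Scd1 (within chr19:44400294-44401851, minus strand) and from coding base 486 to 725 of Scd2 (within chr19:44299656-44301292, plus strand), and the run between the capitals has 147 bases.
Scd1: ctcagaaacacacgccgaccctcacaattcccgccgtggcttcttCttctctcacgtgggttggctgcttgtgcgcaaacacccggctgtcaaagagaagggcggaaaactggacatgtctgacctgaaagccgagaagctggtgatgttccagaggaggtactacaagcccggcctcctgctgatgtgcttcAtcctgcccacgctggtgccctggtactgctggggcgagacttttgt
Scd2: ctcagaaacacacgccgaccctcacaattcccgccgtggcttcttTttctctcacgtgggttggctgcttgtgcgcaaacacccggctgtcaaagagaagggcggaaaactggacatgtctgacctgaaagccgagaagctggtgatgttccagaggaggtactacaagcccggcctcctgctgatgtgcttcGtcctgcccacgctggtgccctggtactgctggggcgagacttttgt
Over whole transcripts the sharing was small. Of the 50-base windows of the Scd1 transcript, 4.66% also occurred in a transcript of another gene, and 4.01% of those of Scd2. The other member with such a share was Elovl6, at 4.59%, of which most windows lay in the gene model Gm11295, and the remaining 6 members had at most 0.23%. How reads with several alignments were counted is not given in the sources used here.

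Levels between genes were compared per length, as TPM (counts scaled by exon length and then to a common library total, with lengths of GENCODE M21). By the median over the 18 libraries, Scd2 was the most abundant of the 9 genes with 487 TPM. Fads2 followed with 179 TPM, Scd1 with 154, Fads1 with 147 and Fads3 with 120 TPM. The elongases were lower, with 93.2 TPM for Elovl5, 46.7 for Elovl1, 29.9 for Elovl6 and 5.49 TPM for Elovl4. All further levels are CPM, which are not corrected for length, so that levels are compared only within a gene. Ratios of CPM between genes are compared only from library to library.

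Scd1, the desaturase that makes palmitoleate and oleate in most mouse tissues, was at 283, 257 and 272 CPM in the 3 libraries of Scm (271 ± 12.8, SD, n = 3) and at 439.5, 444 and 409 CPM in Rcm (431 ± 19.3). After 12 h in the opposite serum it was at 310, 316 and 285 CPM in S-Rcm and at 200.4, 222 and 221 CPM in R-Scm. At 24 h the libraries were at 432, 335 and 348 CPM in S-Rcm and at 435, 237 and 215 CPM in R-Scm. The Rcm libraries were all above those of Scm, the R-Scm 12 h libraries were below every library of Scm, Rcm and S-Rcm, and 1 library of R-Scm 24 h lay among those of Rcm. Scd1 fell in R-Scm 12 h against Rcm, with a log2 fold change of -1.01 (SE 0.19, edgeR adjusted p = 0.00469), so that it was 2.01-fold lower. The difference between Rcm and Scm, 0.67 on the log2 scale (SE 0.19, 95% interval 0.28 to 1.06), did not pass the adjusted threshold of 0.05 in edgeR (adjusted p = 0.0673). It passed with DESeq2, the tool named by the study (adjusted p = 0.0212), and with edgeR on the compared groups alone (adjusted p = 0.00218).

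Scd2, the paralogue that is the main stearoyl-CoA desaturase of the brain and the embryo, had the most uneven counts of the 9 genes. The Scm libraries were at 289.7, 984 and 1047 CPM and the Rcm libraries at 1467, 1438 and 1555 CPM. S-Rcm was at 1056, 1127 and 997.5 CPM at 12 h and at 1844, 1203 and 1255 CPM at 24 h. R-Scm was at 601, 605 and 134 CPM at 12 h and at 1756, 152 and 674 CPM at 24 h. Scm replicate 1, R-Scm 12 h replicate 3 and R-Scm 24 h replicate 2 were each far below the other libraries of their group, whereas the Rcm and S-Rcm 12 h libraries lay close together. Within a group the highest library reached at least 4 times the lowest for 20 of the 2515 genes that averaged 100 CPM or more (0.795%), and Scd2 was one of them. In R-Scm 12 h against Rcm the log2 fold change of Scd2 was -1.73 (SE 0.71, 95% interval -3.25 to -0.22, edgeR adjusted p = 0.205), and in Rcm against Scm it was 0.94 (SE 0.69, 95% interval -0.54 to 2.43, edgeR adjusted p = 0.518). Neither comparison was called, although the libraries did not overlap in either, and intervals this wide do not show that Scd2 stayed level. Leaving out 1 library moved the value in R-Scm 24 h against Rcm from -0.79 to -1.85 without R-Scm 24 h replicate 1 (adjusted p = 0.196).

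The ratio of Scd2 to Scd1 CPM within a library showed the same 3 libraries. It was 1.02 in Scm replicate 1, 0.609 in R-Scm 12 h replicate 3 and 0.64 in R-Scm 24 h replicate 2. In the other 15 libraries it lay between 2.73 and 4.27. Scd1 in those 3 libraries was at 283, 221 and 237 CPM, near other libraries of its groups. The neighbouring paralogues had few counts, with 0 to 9 counts per library for Scd3 and 3 to 25 for Scd4, and the microRNA gene Mir5114, which lies within Scd2, was listed at 1 in every library, as were 146 of the 2207 miRNA genes of the table, so that this value says nothing of its expression. What set the Scd2 counts of the 3 libraries apart was not tested.

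**Figure D1:**
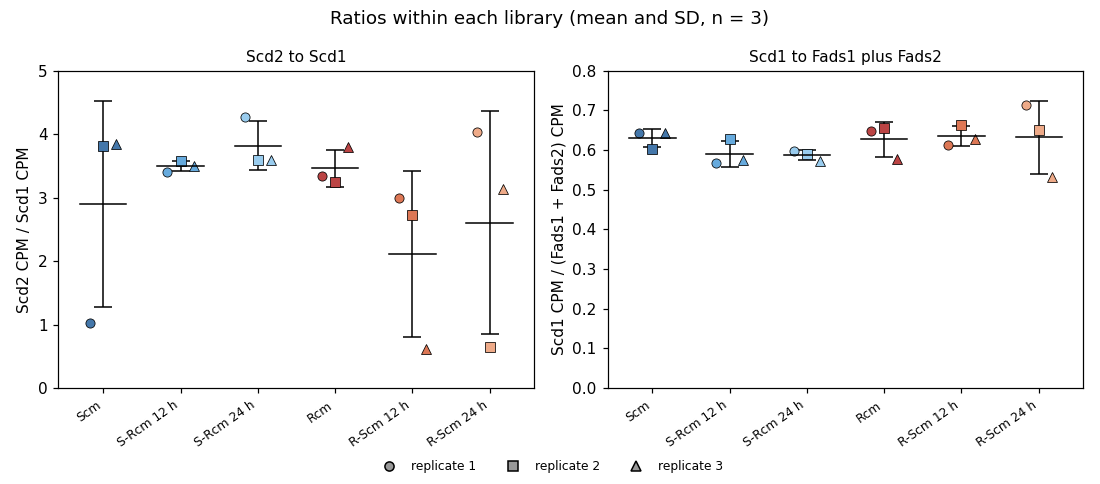
Ratios within each of the 18 libraries, by group, with Scd2 CPM over Scd1 CPM at the left and Scd1 CPM over the sum of Fads1 and Fads2 CPM at the right. Points are libraries, with a symbol for each replicate number, and lines are the group mean and SD. The left ratio is at most 1.02 in 3 libraries of 3 groups and at least 2.73 in the rest, whereas the right ratio stays between 0.531 and 0.714.

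Fads1, Fads2 and Fads3 form a cluster on chromosome 19 at some distance from the Scd genes. Fads3 lies at chr19:10041569-10060110 on the plus strand, Fads2 at chr19:10062765-10101746 on the minus strand and Fads1 at chr19:10182888-10196877 on the plus strand. Their coding sequences were less alike than those of the Scd pair, with 71.1% identity between Fads2 and Fads3, 67.8% between Fads1 and Fads2 and 65.7% between Fads1 and Fads3.

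Fads1, the delta-5 desaturase of PUFA synthesis, was at 248, 241 and 234 CPM in Scm (241 ± 6.88, SD, n = 3) and at 363, 364 and 378 CPM in Rcm (369 ± 8.35). In S-Rcm it was at 302, 282 and 264 CPM at 12 h and at 362, 299.6 and 326 CPM at 24 h. In R-Scm it was at 187, 191 and 201 CPM at 12 h and at 330, 216 and 229 CPM at 24 h. None of the Rcm libraries overlapped with those of Scm, R-Scm 12 h or R-Scm 24 h. Fads1 was higher in Rcm than in Scm, with a log2 fold change of 0.61 (SE 0.12, edgeR adjusted p = 0.0104), or 1.53-fold. It fell 1.91-fold in R-Scm 12 h against Rcm (log2 fold change -0.93, SE 0.12, edgeR adjusted p = 0.000379), the smallest adjusted p of any member in the 5 comparisons of the study. The call between Rcm and Scm was lost without Scm replicate 2 (adjusted p = 0.0515) or Scm replicate 3 (adjusted p = 0.0584).

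Fads2, the delta-6 desaturase that starts PUFA synthesis, had the same order of group means as Fads1. It was at 191, 186 and 188 CPM in Scm (188 ± 2.75, SD, n = 3) and at 315, 313 and 329.8 CPM in Rcm (319 ± 9.14). S-Rcm was at 243, 220.1 and 232 CPM at 12 h and at 361, 268 and 282 CPM at 24 h, and R-Scm at 139, 144 and 149.9 CPM at 12 h and at 279, 148 and 176 CPM at 24 h. The 3 Scm libraries lay close together, the S-Rcm libraries of both times were all above them, and the R-Scm 12 h libraries were all below them. Fads2 was 1.69-fold higher in Rcm than in Scm (log2 fold change 0.76, SE 0.17, edgeR adjusted p = 0.0186) and 2.21-fold lower in R-Scm 12 h than in Rcm (-1.15, SE 0.17, edgeR adjusted p = 0.000815). The first of these calls was lost in 5 of 6 fits that left out a library, with adjusted p up to 0.0768 and log2 fold changes between 0.75 and 0.77 in those 5.

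At 24 h Fads2 was the member whose call depended on the tool. In S-Rcm 24 h against Scm its log2 fold change was 0.69 (SE 0.17, 95% interval 0.34 to 1.04), which missed the threshold in edgeR (adjusted p = 0.0931) and passed it in DESeq2 (adjusted p = 0.0128). In R-Scm 24 h against Rcm it was -0.67 (SE 0.17, 95% interval -1.02 to -0.32), again past the threshold in DESeq2 (adjusted p = 0.0185) and not in edgeR (adjusted p = 0.0847). The ratio of Fads2 to Fads1 CPM was 0.748 ± 0.00502 in R-Scm 12 h and 0.867 ± 0.00625 in Rcm (SD, n = 3), and the libraries of these groups did not overlap in it. By contrast, Scd1 alone kept nearly the same ratio to the sum of Fads1 and Fads2 in every group. Its group means were 0.587 to 0.635, with a range of 0.531 to 0.714 over the 18 libraries. With Scd2 added to Scd1, the ratio to that sum was less even and ran from 1.01 to 3.6. Its means ran from 1.98 ± 0.836 in R-Scm 12 h to 2.83 ± 0.276 in S-Rcm 24 h (SD, n = 3). Its lowest values, 1.01, 1.07 and 1.3, were in the 3 libraries with low Scd2.

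Fads3, which acts on the sphingoid base of ceramides, showed no called difference between the steady cultures. It was at 175, 191.5 and 187 CPM in Scm and at 187, 179 and 193 CPM in Rcm. It was at 158, 142.5 and 153 CPM in S-Rcm 12 h and at 144, 143 and 161 CPM in R-Scm 12 h. At 24 h it was at 226, 199 and 199 CPM in S-Rcm and at 172, 216 and 216 CPM in R-Scm. Scm and Rcm overlapped, with a log2 fold change of 0.01 (95% interval -0.18 to 0.21, edgeR adjusted p = 0.955), and the libraries of both exchanges at 12 h were all below those of Scm and Rcm. The differences at 12 h were -0.32 in R-Scm against Rcm (SE 0.09, edgeR adjusted p = 0.0664) and -0.29 in S-Rcm against Scm (SE 0.09, edgeR adjusted p = 0.152), and neither was called. From 12 h to 24 h the log2 fold change was 0.43 in R-Scm (SE 0.09, edgeR adjusted p = 0.0337) and 0.46 in S-Rcm (SE 0.09, edgeR adjusted p = 0.0574). The first of these had an adjusted p under 0.05 but a fold change under the threshold.

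The elongase genes are spread over the genome. Elovl1 lies at chr4:118428093-118432953 on the plus strand, Elovl4 at chr9:83778692-83806277 on the minus strand, Elovl5 at chr9:77917364-77984519 on the plus strand and Elovl6 at chr3:129532355-129638495 on the plus strand. Elovl1 overlaps Cdc20 and Elovl6 overlaps the antisense gene Gm35986, each on the opposite strand, and Elovl6 also overlaps Gm43072 on its own strand. How reads in such overlaps were counted and whether strand was used are not given in the sources used here.

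Among the elongases, Elovl6, which extends palmitate to stearate, was the one with a call. It was at 78.9, 50.1 and 72.0 CPM in Scm (67.0 ± 15.1, SD, n = 3) and at 158, 120.1 and 89.0 CPM in Rcm (123 ± 34.8). It was at 72.2, 86.7 and 71.5 CPM in S-Rcm 12 h and at 142, 106 and 98.0 CPM in S-Rcm 24 h. R-Scm was at 49.9, 57.0 and 57.4 CPM at 12 h and at 101.6, 67.0 and 53.3 CPM at 24 h. The Rcm libraries were spread widely but were all above those of Scm and of R-Scm 12 h. Elovl6 fell 2.24-fold in R-Scm 12 h against Rcm (log2 fold change -1.16, SE 0.24, edgeR adjusted p = 0.0104), a call that was lost without Rcm replicate 1 (-0.93, adjusted p = 0.0602). Its difference between Rcm and Scm, 0.87 (SE 0.24, 95% interval 0.36 to 1.38), missed the threshold in edgeR (adjusted p = 0.0678) and passed it in DESeq2 (adjusted p = 0.013).

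Elovl5, the elongase of PUFAs, ran from 119 to 129 CPM in Scm, 144 to 159 CPM in Rcm, 115 to 130 CPM in S-Rcm 12 h, 132 to 167 CPM in S-Rcm 24 h, 112 to 129 CPM in R-Scm 12 h and 119 to 149.7 CPM in R-Scm 24 h. Rcm libraries were above those of Scm (log2 fold change 0.31, SE 0.10, edgeR adjusted p = 0.134) and those of R-Scm 12 h (-0.36, SE 0.10, edgeR adjusted p = 0.0651) without overlap, and neither difference was called. Elovl1, which makes saturated and monounsaturated very long chains, ran from 37.8 to 81.4 CPM over the 18 libraries, and the highest 3 values were each in another group, in Rcm and at either time of R-Scm. Its log2 fold changes in the 5 comparisons of the study lay between -0.20 and 0.29, with edgeR adjusted p of at least 0.577, and the groups overlapped in each. Elovl4, which makes ultra-long chains in retina, skin and brain, was the lowest member by TPM and was at 4.80 to 11.3 CPM. Its group mean was highest in R-Scm 12 h (8.26 ± 2.74 CPM, SD, n = 3) and lowest in S-Rcm 24 h (5.32 ± 0.284 CPM), and the difference of 0.48 between R-Scm 12 h and Rcm (SE 0.20, edgeR adjusted p = 0.213) was not called.

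**Figure D2:**
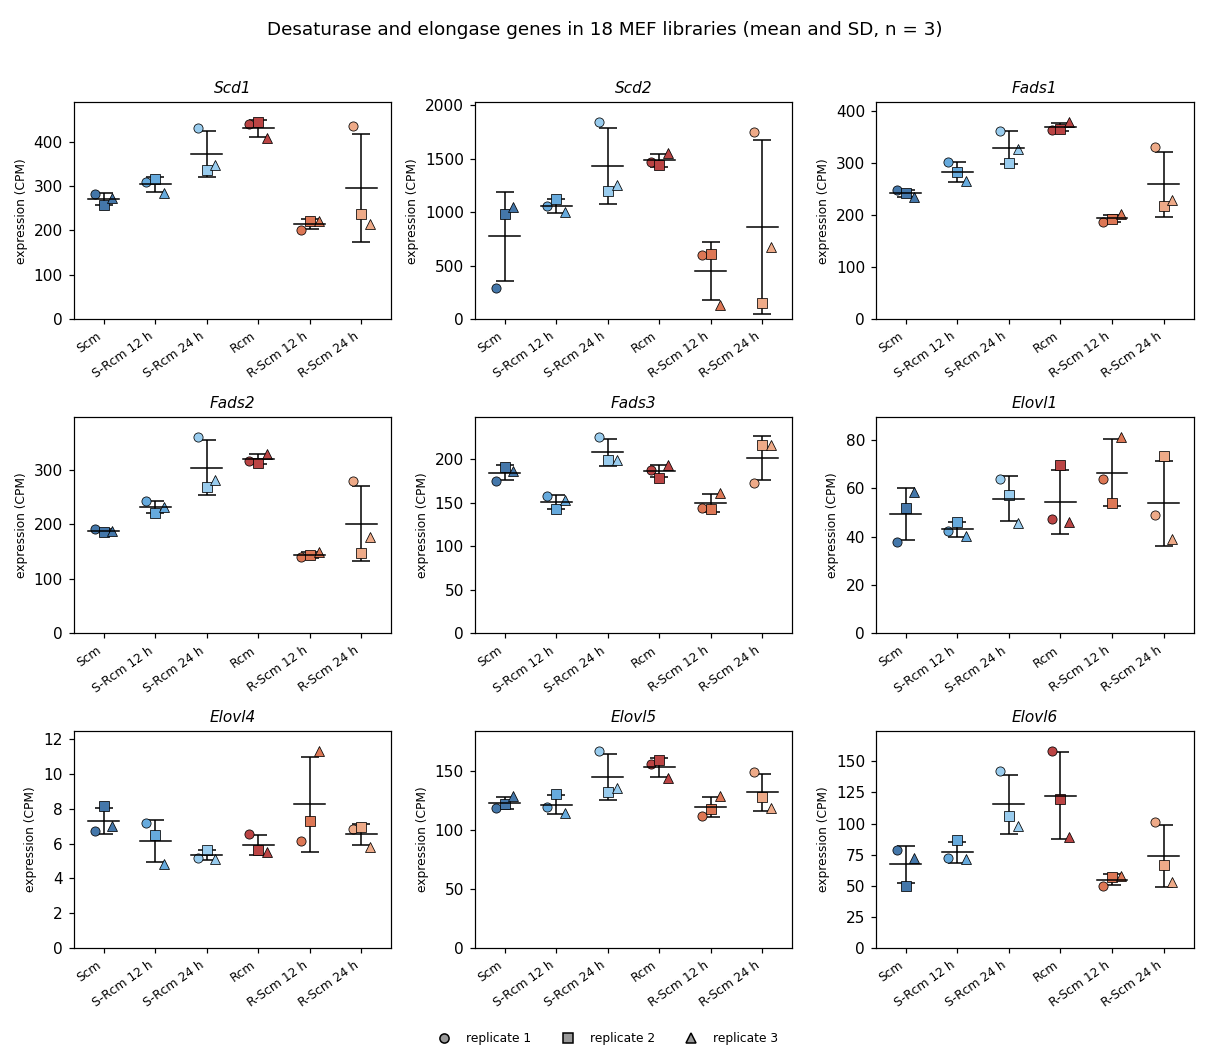
Expression in CPM of the 9 genes in each of the 18 libraries, by group, on axes that start at 0. Points are libraries, with a symbol for each replicate number, and lines are the group mean and SD (n = 3). Scd1, Fads1, Fads2 and Elovl6 are highest in Rcm and lowest in R-Scm 12 h by their means, R-Scm 24 h replicate 1 lies above the other libraries of its group in these 4, and Scd2 shows 3 low libraries in 3 groups.

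For Scd1, Scd2, Fads1, Fads2 and Elovl6 the 6 group means stood in 1 order, from R-Scm 12 h through Scm, R-Scm 24 h, S-Rcm 12 h and S-Rcm 24 h up to Rcm. The place of R-Scm 24 h rested on its replicate 1. Without that library its mean was below that of Scm for all 5 genes, at 226 CPM for Scd1, 223 for Fads1, 162 for Fads2 and 60.1 for Elovl6, and for Scd2 it was 413 CPM, also below R-Scm 12 h. The order for Scd2 also rested on its low libraries. These were Scm replicate 1 at 289.7 CPM, R-Scm 12 h replicate 3 at 134 CPM and R-Scm 24 h replicate 2 at 152 CPM. With all libraries, neighbours in this order did not differ past the thresholds in the 4 of 5 steps that were tested, and the step from R-Scm 24 h to S-Rcm 12 h was not tested. Elovl5 had the same ends, R-Scm 12 h and Rcm, whereas Fads3, Elovl1 and Elovl4 had other orders.

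Counted over the 9 genes, the comparison of the steady cultures gave 2 members higher in Rcm (Fads1 and Fads2) and 0 lower, where 2.3% of all genes tested were called in either direction. The log2 fold changes of the members had a median of 0.61, against 0.01 for all genes tested, and 7 of the 9 did not overlap between the groups (23.9% of all genes). Elovl4, 1 of these 7, was lower in Rcm (-0.31). In R-Scm 12 h against Rcm, 4 members were lower (Scd1, Fads1, Fads2 and Elovl6) and 0 higher, where 2.74% of all genes were called. The median was -0.93, and 7 of the 9 did not overlap (23.4% of all genes). Leaving out 1 library at a time gave 3 or 4 members here and 0 to 3 between Rcm and Scm.

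In the exchange from Scm to Rcm, 0 of 9 members were called at either time by edgeR. At 12 h the median log2 fold change was 0.17, 4 of the 9 did not overlap with Scm (26.4% of all genes), 1 had an unadjusted p under 0.05 (14.3% of all genes), and 0.858% of all genes were called. Fads3, the member under that p and 1 of the 4 without overlap, was lower (-0.29). DESeq2 also called 0. At 24 h the median was 0.45, 8 of the 9 did not overlap (19.5% of all genes), 6 had an unadjusted p under 0.05 (8.11% of all genes), and 0.338% of all genes were called. The 8 and the 6 both include Elovl4, which was lower (-0.46). DESeq2 called 1 member, Fads2. From 12 h to 24 h in Rcm the edgeR count was 0, with 0.156% of all genes called, 4 members under an unadjusted p of 0.05 (9.26% of all genes) and a median of 0.38, and DESeq2 also called 0.

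**Figure D3:**
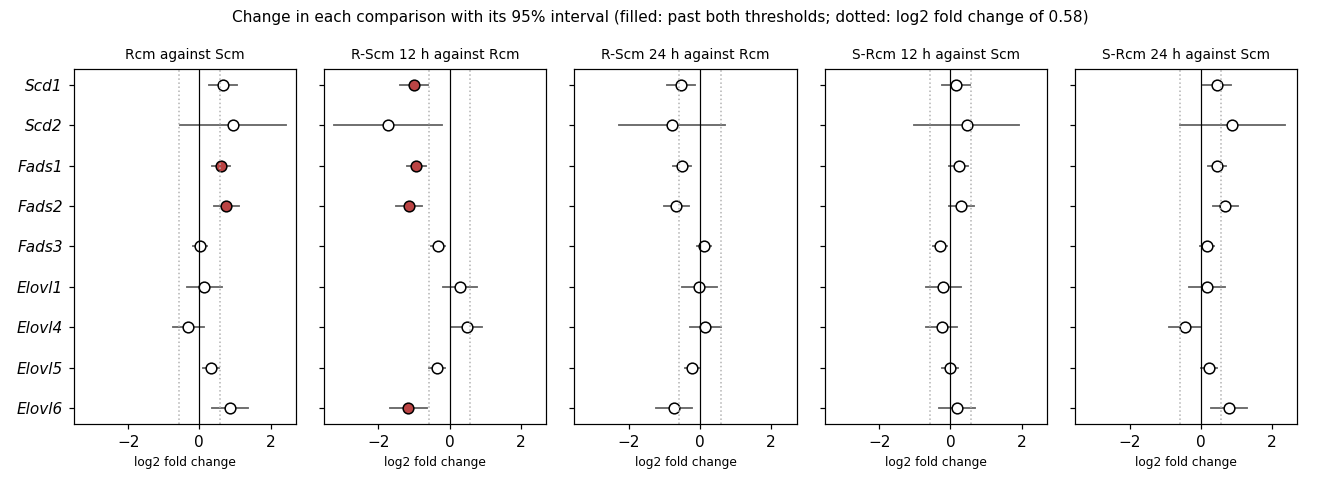
Log2 fold change of each of the 9 genes, on the x axis, in the 5 comparisons of the study, with its 95% interval from edgeR. Filled points passed both thresholds, an absolute log2 fold change above 0.58 (dotted lines) and an adjusted p under 0.05. The 6 filled points are Fads1 and Fads2 in Rcm against Scm, and Scd1, Fads1, Fads2 and Elovl6 in R-Scm 12 h against Rcm, and the intervals of Scd2 are the widest.

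R-Scm 24 h rested on 1 library. With all 3 libraries, edgeR called 0 of 9 members against Rcm, where 0.377% of all genes were called. The members had a median of -0.51, 2 did not overlap with Rcm (11.2% of all genes), 4 had an unadjusted p under 0.05 (10.3% of all genes), and DESeq2 called 1, Fads2. R-Scm 24 h replicate 1 was at 435 CPM for Scd1, 330 for Fads1, 279 for Fads2 and 101.6 for Elovl6, against at most 237, 229, 176 and 67.0 CPM in the other libraries of its group. Without it the median was -0.73. That library was singled out by its high values for Scd1, Scd2, Fads1, Fads2 and Elovl6, so calls of these genes without it depend on that choice. In the fit without it 4 members were called lower, where 3.19% of all genes were called. These were Scd1 (-0.93, edgeR adjusted p = 0.000121), Fads1 (-0.73, adjusted p = 0.000199), Fads2 (-0.98, adjusted p = 0.000147) and Elovl6 (-1.03, adjusted p = 0.0208). The fibroblast marker sum of R-Scm 24 h ran from 10000 to 13600 CPM, and its part in the result was not tested.

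**Figure D4:**
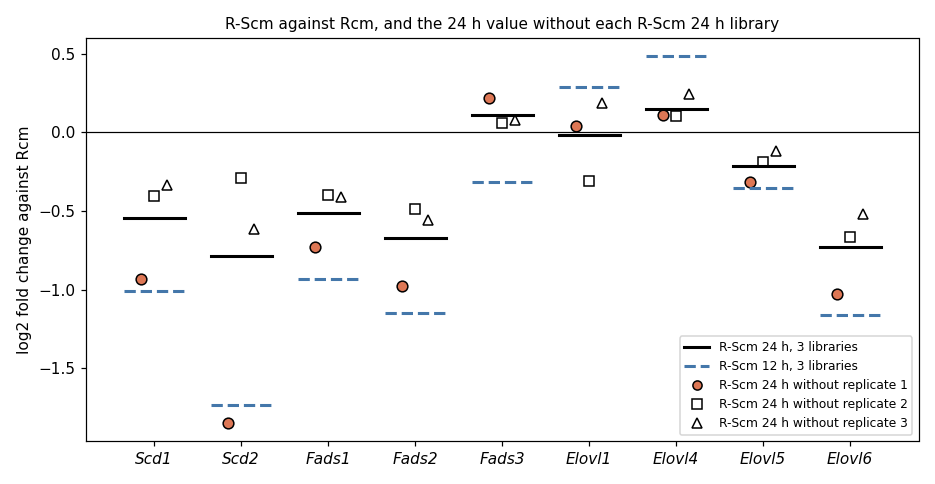
Log2 fold change against Rcm of each of the 9 genes in R-Scm 24 h with 3 libraries (solid lines), in R-Scm 12 h (dashed lines) and in R-Scm 24 h without each of its libraries in turn (symbols). Without replicate 1 the values of Scd1, Fads1, Fads2 and Elovl6 lie between -0.73 and -1.03, nearer to those of R-Scm 12 h, whereas Fads3 stays above 0 at 24 h in each fit.

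Against the serum they had entered, the exchange groups gave 0 called members by edgeR and by DESeq2. In R-Scm 12 h against Scm the median was -0.30, with 4.4% of all genes called and 3 members, Fads1, Fads2 and Fads3, at an unadjusted p under 0.05 (25% of all genes). Scd1 was at -0.34 there (SE 0.19, 95% interval -0.73 to 0.05). In S-Rcm 12 h against Rcm the median was -0.38, with 0.871% of all genes called and 6 members at an unadjusted p under 0.05 (15.4% of all genes). At 24 h the medians were 0.12 in R-Scm against Scm, with 0.592% of all genes called, and -0.08 in S-Rcm against Rcm, with 0.221% called, and 0 members had an unadjusted p under 0.05 in either (10.1% and 7.48% of all genes). The first of these medians changed sign without R-Scm 24 h replicate 1, to -0.16, with 6 of 9 members below 0 instead of 1. In that fit 0 members and 0.49% of all genes were called. From 12 h to 24 h in R-Scm the count was 0 as well, in edgeR and in DESeq2, with 0.774% of all genes called, 4 members at an unadjusted p under 0.05 (13.6% of all genes) and a median of 0.43. Without R-Scm 24 h replicate 1 that median was 0.08, with 0 members and 1.97% of all genes called.

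Whether the 2 exchanges moved a gene by equal and opposite amounts was tested by the sum of their log2 fold changes, which is 0 for mirrored changes. At 12 h the sum was called for Fads1 (-0.70, SE 0.17, edgeR adjusted p = 0.0329) and Fads3 (-0.61, SE 0.13, edgeR adjusted p = 0.0167), where 3.09% of all genes were called. These 2 were not set apart by size. The sums of Scd1 (-0.84, edgeR adjusted p = 0.0908), Fads2 (-0.85, adjusted p = 0.0563), Elovl6 (-0.97, adjusted p = 0.134) and Scd2 (-1.28, adjusted p = 0.54) lay further below 0 and were not called. The median of the members was -0.70, with 7 sums below 0 and 2 above. For Fads1 the parts were -0.93 in R-Scm and 0.23 in S-Rcm, and for Fads3 they were -0.32 and -0.29, so that Fads3 was lower after both exchanges. The call of Fads1 was lost in each of the 12 fits that left out 1 library, with adjusted p from 0.0507 to 0.0881. At 24 h the count was 0 in edgeR and in DESeq2, with 0.039% of all genes called, 1 member at an unadjusted p under 0.05 (5.74% of all genes) and a median of 0.02. Without R-Scm 24 h replicate 1 the median was -0.28, with 0 members and 0.306% of all genes called.

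Genes that work beside these enzymes were counted in lists, with the 5 comparisons of the study. List genes were called in 3 of these, where the share of all genes called was 2.3% in Rcm against Scm, 2.74% in R-Scm 12 h against Rcm and 0.858% in S-Rcm 12 h against Scm. A single call in a list is given as a description and says little of the list. Of 8 other desaturases and elongases, 3 passed the filter (Scd4, Elovl7 and Degs1) and 0 were called by edgeR. Named after their values were seen, Scd4 had an unadjusted p under 0.05 in Rcm against Scm (1.02, SE 0.48, edgeR adjusted p = 0.303) and in R-Scm 12 h against Rcm (-1.19, SE 0.48, edgeR adjusted p = 0.187), and Elovl7 in the latter (0.62, edgeR adjusted p = 0.221). Of 10 genes of palmitate synthesis, which supplies the substrate of ELOVL6 and SCD, 9 were tested, and 5 of these fell in R-Scm 12 h against Rcm. They were Acly (-0.86, SE 0.09), which makes cytosolic acetyl-CoA, Slc25a1 (-0.92, SE 0.19), the mitochondrial citrate carrier, Acss2 (-0.80, SE 0.21), the acetyl-CoA synthetase, Fasn (-0.75, SE 0.11), the fatty acid synthase, and, named after its value was seen, Acaca (-0.64, SE 0.15), the acetyl-CoA carboxylase. The median of the 9 there was -0.64, against -0.01 for all genes tested, and 0 of the 9 were called in the other comparisons. Of 21 transcriptional regulators 19 were tested, and 2 fell in R-Scm 12 h: Insig1 (-1.91, SE 0.19), which retains SREBPs in the endoplasmic reticulum, and Srebf2 (-0.81, SE 0.14), which encodes SREBP2. The other 17, Srebf1 among them, were called in none of the 5 comparisons.

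Of 13 partners of the elongation cycle and electron donors, 11 were tested, and 1 was called in each of 3 comparisons. Hacd4, a dehydratase of the cycle, was higher in Rcm than in Scm (0.85, SE 0.19), Hacd1, another such dehydratase, rose in R-Scm 12 h against Rcm (0.60, SE 0.13), and Cyb5a, a cytochrome b5 that passes electrons to desaturases, rose in S-Rcm 12 h against Scm (0.90, SE 0.14). Of 18 acyl-CoA synthetases and lysophospholipid acyltransferases, which load fatty acids and place them into phospholipids, 17 were tested and 1 was called. This was Acsl3, which activates MUFAs, at 0.66 in Rcm against Scm (SE 0.16) and -0.89 in R-Scm 12 h against Rcm (SE 0.16).

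The genes most like each member in their pattern were found by Pearson's r of log2 CPM over the 18 libraries, among the 13526 genes that averaged 1 CPM or more, as a description. The points share their groups and depth, so that r holds the differences between groups given above. Among the members themselves r was 0.986 between Fads1 and Fads2, 0.967 between Scd1 and Fads1, 0.917 between Scd1 and Elovl6 and 0.864 between Scd1 and Elovl5. It was 0.717 between Scd1 and Scd2, 0.363 between Fads1 and Fads3, and at most 0.385 between Elovl1 and any other member. Outside the members, genes among the nearest were Stard4 (0.969), Hsd17b7 (0.966) and Rdh11 (0.959) for Scd1. For Fads1 they were Cyp51 (0.97) and Erg28 (0.964), and for Fads2 Erg28 (0.975), Cyp51 (0.967) and Hsd17b7 (0.965). For Elovl6 they were Hsd17b7 (0.952), Acsl3 (0.934) and Stard4 (0.932), and for Elovl5 Sc5d (0.947) and Stard4 (0.905). Scd2 had lower values, with Dkk3 (0.912), Fzd2 (0.877) and Tbc1d25 (0.876), and Fads3 had other neighbours, with Slc7a5 (0.902), Asns (0.902) and Tln1 (0.893). Elovl1 was nearest to Amd2 (0.834), Uchl4 (0.829) and Pdss1 (0.828), and Elovl4 to Klf5 (0.819), Foxo3 (0.815) and Adra1b (0.796).

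Promoter windows of RefSeq (GRCm38.p6), from 250 bases before to 50 bases after a transcription start, were found for 6 of the 9 genes: Fads2, Fads3, Elovl1, Elovl4, Elovl5 and Elovl6. They were searched on both strands for TCACNCCAC and TCACNTGA, a form of the sterol regulatory element and an E-box-like element bound by SREBPs, and for CCAAT, the core of the NF-Y site. Of all 32851 windows, 1.24% held TCACNCCAC, 4.18% held TCACNTGA and 37.4% held CCAAT. The windows of the 6 members held 0 of the first and 0 of the second motif. Elovl1 had 2 windows. CCAAT was in 1 of these and in those of Fads3, Elovl4 and Elovl5, and not in those of Fads2 and Elovl6. Fads2 and Elovl6 were called lower in R-Scm 12 h against Rcm. Fads3 and Elovl5 were also lower there without overlap but were not called. Scd1 and Fads1, also called there, had no window, and a relation of the motif to the changes was not tested. The 250 bases before the start are shown for Fads2, for Elovl6 and for Elovl5, with CCAAT on either strand in capitals. They are chr19:10101504-10101753 (minus strand) for Fads2, chr3:129532136-129532385 (plus strand) for Elovl6 and chr9:77917115-77917364 (plus strand) for Elovl5, where the matches begin 71 and 17 bases before the start on the minus strand.
Fads2: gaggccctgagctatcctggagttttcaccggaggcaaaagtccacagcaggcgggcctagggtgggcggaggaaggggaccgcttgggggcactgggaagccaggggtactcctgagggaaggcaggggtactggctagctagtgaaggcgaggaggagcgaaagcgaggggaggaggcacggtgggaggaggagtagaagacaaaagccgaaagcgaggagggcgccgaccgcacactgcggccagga
Elovl6: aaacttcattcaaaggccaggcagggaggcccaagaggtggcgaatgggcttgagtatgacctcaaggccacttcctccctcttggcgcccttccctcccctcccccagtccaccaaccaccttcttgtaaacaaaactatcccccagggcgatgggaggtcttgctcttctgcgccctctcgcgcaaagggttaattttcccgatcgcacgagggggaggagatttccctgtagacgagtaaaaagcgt
Elovl5: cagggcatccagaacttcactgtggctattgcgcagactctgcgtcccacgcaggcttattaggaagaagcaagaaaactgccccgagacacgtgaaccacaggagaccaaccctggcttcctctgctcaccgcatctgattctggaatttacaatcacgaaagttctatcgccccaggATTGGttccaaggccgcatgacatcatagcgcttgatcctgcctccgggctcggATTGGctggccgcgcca
A match in these letters is a description of the window, and a window without one says nothing of sites elsewhere in the gene.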

How the data were processed

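RNA-seq libraries of MEFs (18, in 6 groups of 3) were analysed. The authors aligned paired-end reads with HISAT2 2.0.5 to GRCm38 (release 102) and deposited raw counts per gene, whole numbers without normalization. The counting tool and its use of strand are not given in the sources used here. Groups and replicate numbers came from the sample titles and columns from the sample descriptions, and 0 columns were left out. In S-Rcm 24 h, R-Scm 12 h and R-Scm 24 h the columns are numbered 1, 3 and 4 where the titles have 1, 2 and 3.

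Genes were kept by edgeR's filterByExpr (15381 of 55487). Counts were scaled with TMM factors, and edgeR's quasi-likelihood test was run in 1 model over the 18 libraries (12 residual degrees of freedom, common dispersion 0.0298, robust estimates). A gene was called at an absolute log2 fold change above 0.58, the threshold of the study, and an adjusted p under 0.05, by the method of Benjamini and Hochberg across the genes tested. The study made its own calls with DESeq2, which served here as an alternative. SEs are the log2 fold change divided by the root of F. The fit was tested on simulated counts. Alternatives were an adjusted p under 0.01 or alone, RLE and upper-quartile scaling, a replicate block by title number or, added after seeing the data, by column number, no filter, a filter of 10 counts in each library, the compared groups alone, DESeq2, and each library left out in turn. TPM used exon lengths of GENCODE M21.

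The 9 genes and the lists were chosen with earlier results of these data known. Named were the 9 genes, at most 4 called genes per list by size of change in the 5 comparisons of the study, and the 3 genes nearest to each member by Pearson's r. Some results under this rule are not reported here. Reads carry no molecular identifiers. Software was edgeR 4.0.16 with limma 3.58.1 and DESeq2 1.42.0 under R 4.3.3, and pandas 2.3.3 with matplotlib 3.10.9 under Python 3.11.15.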

Additional observations from a re-analysis of the deposited data

Results flagged for a closer look

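Fads1 and Fads3 were singled out because the exchanges did not change them by equal and opposite amounts at 12 h, by a test of the sum of both log2 fold changes. Scd1, Scd2, Fads2 and Elovl6 had sums further below 0 that were not called. For Fads1 the sum was -0.70 (edgeR adjusted p = 0.0329), and over the alternatives it ran from -0.75 to -0.65 with adjusted p from 0.00178 to 0.0881. For Fads3 it was -0.61 (edgeR adjusted p = 0.0167), and over the alternatives it ran from -0.66 to -0.57 with adjusted p from 0.000912 to 0.0483. The call of Fads3 was lost without Scm replicate 2 (-0.58), S-Rcm 12 h replicate 2 (-0.57), R-Scm 12 h replicate 1 (-0.58) or R-Scm 12 h replicate 2 (-0.57), because the sum then lay inside the fold threshold, and the adjusted p stayed under 0.05 in these fits. Groups of 3 libraries are too small for a test of outlying libraries, so that the low Scd2 counts were not tested in this way.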

How the results depend on the processing

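Each count of called members was recomputed under every alternative. Between Rcm and Scm the count of 2 became 0 at an adjusted p under 0.01 and 4 with DESeq2 (Scd1, Fads1, Fads2 and Elovl6), and 3 with the compared groups alone, which added Scd1 (0.66, adjusted p = 0.00218). The number of all genes called moved as well, from 354 to 170 at an adjusted p under 0.01 and to 484 with DESeq2. For the sum of both exchanges at 12 h, 2 became 0 at an adjusted p under 0.01, and 4 with the compared groups alone and with DESeq2 (Scd1, Fads1, Fads2 and Fads3). Here the number of all genes called moved from 475 to 177, 614 and 699 in these 3 settings. In R-Scm 24 h against R-Scm 12 h, 0 became 1 on the adjusted p alone (Fads3), where all genes called went from 119 to 173. In R-Scm 24 h against Rcm, 0 became 1 with DESeq2 (Fads2), where all genes called went from 58 to 163. In S-Rcm 24 h against Scm 0 became 1 with the compared groups alone and with DESeq2 (Fads2), where all genes called went from 52 to 90 and 136. The causes were not tested.

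With each library left out in turn, the counts ran from 3 to 4 in R-Scm 12 h against Rcm, from 0 to 4 in R-Scm 24 h against Rcm (4 without R-Scm 24 h replicate 1), from 0 to 3 in Rcm against Scm (0 without Scm replicate 2 or 3) and from 0 to 1 for the sum at 12 h, and they stayed at 0 in the other comparisons. Without Scm replicate 2 or 3, all genes called between Rcm and Scm fell to 178 and 190.

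With the replicate number of the titles as a block, the count between Rcm and Scm became 4, with Scd1 at 0.67 (edgeR adjusted p = 0.0483) and Elovl6 at 0.85 (adjusted p = 0.0421), where 342 of all genes were called. Fads2 was also called in the sum at 12 h (-0.85, adjusted p = 0.0386). The numbers gave no clear sign of a pairing, which correlations between libraries cannot exclude. Over 45 pairs of libraries of different groups with the same number, deviations from the group means correlated at -0.2 to 0.35. Their median was -0.019, and 11 of them were above 0.1. Over 90 pairs with other numbers the deviations correlated at -0.27 to 0.21, with a median of 0.0023, and 16 were above 0.1. By the numbers in the column names, which differ from the titles in 3 groups, 36 pairs with the same number correlated at -0.21 to 0.17, with a median of -0.023. A block by these numbers, chosen after seeing the data, gave 2 members between Rcm and Scm (Fads1 and Fads2), 1 for the sum at 12 h (Fads3, with Fads1 at -0.69 and an adjusted p of 0.0535) and the same counts as without a block in the other comparisons. Elovl1 in R-Scm 24 h against Rcm (0.1293) and Elovl5 in R-Scm 12 h against Scm (0.0033) changed sign under it.

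Of 1314 values of single members under alternatives, 20 changed sign, all of them uncalled. They leave out R-Scm 24 h against Scm, S-Rcm 24 h against Rcm and the sum at 24 h, which are given by counts and medians. Elovl5 in S-Rcm 12 h against Scm changed to 0.0041 with upper-quartile scaling. Apart from those under the block, the others changed sign without 1 library. Over these fits Elovl1 ran from -0.3092 to 0.1967 in R-Scm 24 h against Rcm (0.0415, 0.1867 and 0.1967 in 3 of them), from -0.0763 to 0.2819 in Rcm against Scm (also -0.0217) and from -0.0816 to 0.307 for the sum at 12 h (also -0.0716 and -0.0191). Elovl4 ran from -0.1187 to 0.3501 in R-Scm 12 h against Scm, from -0.0581 to 0.2162 in S-Rcm 12 h against Rcm and from -0.0531 to 0.4162 for the sum. Elovl5 ran from -0.099 to 0.006 in R-Scm 12 h against Scm and from -0.0766 to 0.0225 in S-Rcm 12 h against Scm (also 0.0173), Fads3 from -0.0248 to 0.0427 in Rcm against Scm (also -0.0227), and Scd2 from -0.1142 to 1.4418 in R-Scm 24 h against R-Scm 12 h. In Rcm against Scm the SE of Scd2 was 0.69. It rests on a spread shared by all 18 libraries, the low ones of other groups included, and was also 0.69 in S-Rcm 12 h against Rcm. This limits what the model can show for Scd2. Its lowest library still held 2190 counts.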
